A study of Mus musculus with 8 samples.

Results

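The endocardial genes described here are 8 genes that mark, or act in, the endocardium: Nfatc1, Smoc1, Cgnl1, Plvap, Tek, Tie1, Emcn and Nrg1. They were taken by gene symbol from the deposited tables of 41128 gene IDs, and each symbol matched a single ID. The genes were chosen by their normalized counts and fold changes between the groups, since an earlier analysis of these same libraries had singled out Nfatc1, Smoc1 and Cgnl1 among endocardial markers for their lower values in the knockout. Their differences between the groups are therefore given as a description, and nothing is read from whether a test called them. RNA-seq was done on left ventricle of FVB mice aged 8 to 12 weeks. The 4 RE1 knockout mice lacked RE1, a regulatory element of the Nppa-Nppb locus, on both alleles, and the 4 wild-type mice were their littermates. The study addresses which elements of a super enhancer govern Nppa and Nppb, the genes of the cardiac natriuretic peptides. How RE1 was deleted, and its coordinates, could not be taken from the labels.

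The endocardium is the endothelial lining of the heart chambers and, in the embryo, the source of the valve cushions and of signals that shape the muscle wall. Nfatc1, a transcription factor that calcineurin moves into the nucleus, marks this lining in the mouse embryo and is needed for its valves. Neuregulin 1, encoded by Nrg1, passes from the endocardium to ErbB receptors on heart muscle, and the Tie receptors encoded by Tek and Tie1 serve angiopoietin signalling in endothelium. Capillaries of the adult ventricle also express Tek, Tie1 and Emcn, so in whole tissue these genes do not report on the endocardium alone. Whether the other members report on it alone in the adult ventricle was not tested.

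Upstream sequence was read for the members whose start site is in the RefSeq promoter table, to show how unlike each other these genes are in front of their starts. The table (build GRCm38.p6) held 4 of the 8 members. The Tie1 window overlaps bases that GENCODE M21 annotates as transcribed and is not printed. The stretches of the other 3 are given 5′ to 3′ on the strand of the gene, with bases transcribed in GENCODE M21 left out. They are chr3:137340828-137341066 (plus strand) for Emcn, chr4:94739039-94739288 (plus strand) for Tek and chr9:71771603-71771852 (minus strand) for Cgnl1. Capitals mark matches, on either strand, to the ETS motif AGGAAG, to the NFAT motif GGAAAA or to the GATA motif AGATAA.
Emcn: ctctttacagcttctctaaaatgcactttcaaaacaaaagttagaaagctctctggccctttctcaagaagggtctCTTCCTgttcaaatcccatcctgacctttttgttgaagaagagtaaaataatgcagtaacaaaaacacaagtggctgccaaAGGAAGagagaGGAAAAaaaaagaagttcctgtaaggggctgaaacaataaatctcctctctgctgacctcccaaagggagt
Tek: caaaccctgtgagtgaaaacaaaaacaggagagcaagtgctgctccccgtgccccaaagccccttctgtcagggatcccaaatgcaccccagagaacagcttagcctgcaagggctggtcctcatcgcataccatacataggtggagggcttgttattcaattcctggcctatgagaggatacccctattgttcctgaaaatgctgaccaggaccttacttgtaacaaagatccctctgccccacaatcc
Cgnl1: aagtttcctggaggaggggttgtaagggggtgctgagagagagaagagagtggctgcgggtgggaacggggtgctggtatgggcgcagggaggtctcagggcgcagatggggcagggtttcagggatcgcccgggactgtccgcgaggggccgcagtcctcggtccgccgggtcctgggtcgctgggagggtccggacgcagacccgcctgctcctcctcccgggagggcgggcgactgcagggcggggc

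The Emcn stretch held 2 matches to AGGAAG, 1 on each strand, and 1 match to GGAAAA, which do not overlap. The Tek and Cgnl1 stretches held 0 matches to any of the 3 motifs. Over the 250 bases before all 32851 start sites in the table, 29.5% of windows held AGGAAG, 20.4% held GGAAAA and 9.99% held AGATAA. A match is a string of letters and not a binding site. The 3 stretches also differed in base composition. The Cgnl1 stretch had a GC content of 70.8% and 20 CpG dinucleotides, the Tek stretch 51.2% and 2, and the Emcn stretch 40.6% and 0. The median over all windows was 52.4% and 6.

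The libraries matched their labels and held ventricular tissue. Nppb went from 2983 ± 1170 normalized counts in wild-type to 6.06 ± 4.37 in knockout ventricles, and Nppa from 419.7 ± 140 to 6.88 ± 2.26 (SD, n = 4 each). Library totals ranged from 20284865 to 34742840 counts in the wild-type group and from 16778368 to 37133306 in the knockout group. Summed over 11 markers, ventricular cardiomyocytes gave 113670 to 120898 CPM (counts scaled to a common library total) in wild-type and 117710 to 123682 CPM in knockout libraries, against 38.5 to 76.0 and 30.5 to 58.6 CPM for 7 atrial markers. The knockout libraries fell into pairs. The mean chi-square per gene was 3.09 between knockout replicates 1 and 3 and 3.60 between 2 and 4, but 14.3 to 16.4 between the pairs, while wild-type pairs lay between 4.89 and 12.8. Mitochondrial rRNA took 9.40% and 9.01% of counts in knockout replicates 1 and 3, 6.40% and 6.19% in replicates 2 and 4, and 8.51% to 10.5% in wild-type libraries. The labels give no batch. Fits with the mitochondrial rRNA share as a covariate are given beside the members whose values they change by over 1.5 times.

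The receptor genes were by far the most abundant members. Levels of different genes were compared as CPM per kilobase of merged exon. On this scale the wild-type level was 12.8 ± 0.862 for Tie1, 12.1 ± 0.324 for Tek, 5.63 ± 0.24 for Cgnl1, 4.60 ± 0.169 for Emcn and 2.38 ± 0.146 for Plvap (SD, n = 4 each). It was 1.74 ± 0.113 for Nfatc1, 0.443 ± 0.139 for Smoc1 and 0.0325 ± 0.0129 for Nrg1 (SD, n = 4 each). Tie1 and Tek overlapped in range, whereas every other neighbour in this order lay apart in the wild-type libraries. Tie1 exceeded 85.7% of the genes tested, Nfatc1 40.6% and Smoc1 14.6%. In the knockout the order was the same except that Tek, at 12.1 ± 0.858, stood just above Tie1 at 12.0 ± 0.888. With the longest transcript as the length, Emcn (7.07) stood above Cgnl1 (6.54) and Nfatc1 (2.70) above Plvap (2.38) in wild-type.

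**Figure D1:**
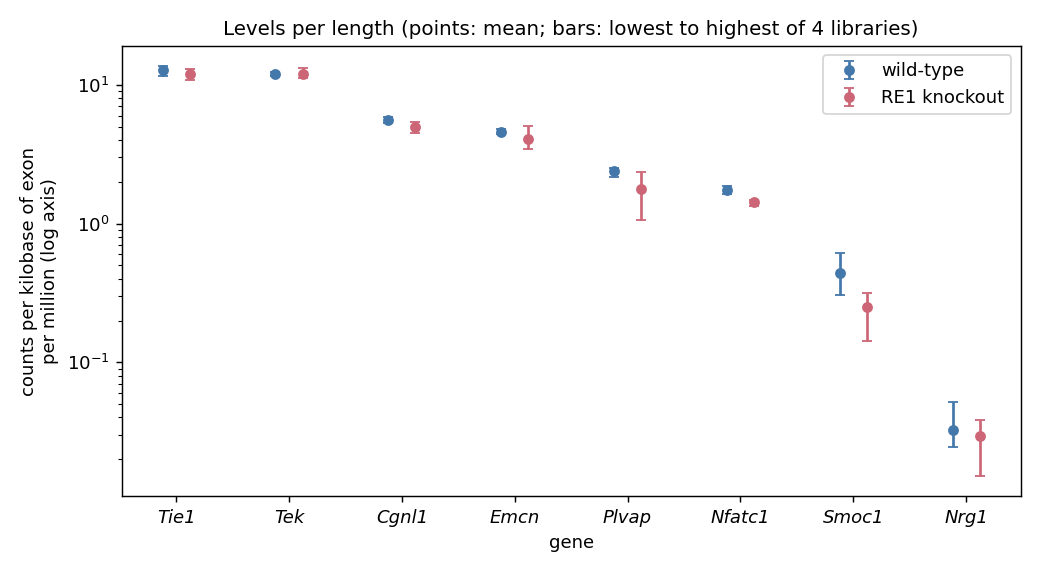
Level of each endocardial gene per length in wild-type and RE1 knockout left ventricle, as CPM per kilobase of merged exon on a log axis, with points for the mean and bars from the lowest to the highest of 4 libraries. Tie1 and Tek lead at 12.8 and 12.1 in wild-type, and Nrg1 is last at 0.0325.

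Nfatc1, the endocardial transcription factor, was lower in every knockout library than in any wild-type library. Nfatc1 (ENSMUSG00000033016) spans 80606205 to 80713071 on chromosome 18 of GRCm38, on the minus strand, with 12 merged exons. Its normalized counts were 364.6, 321.8, 323.3 and 356.3 in wild-type replicates 1 to 4, and the knockout replicates in that order were at 291.4, 289.7, 264.0 and 289.0. The wild-type mean was 341.5 ± 22.1 and the knockout mean 283.5 ± 13.0 (SD, n = 4 each), so the knockout stood at 83.0% of wild-type. In bulk tissue such as this, fewer cells of a type and less RNA per cell cannot be told apart. The log2 fold change, knockout over wild-type throughout, was −0.27 (SE 0.08). It ran from −0.30 to −0.24 when any single library was left out. Raw counts of 181 to 478 give a spread from counting alone of 5.54% in wild-type and 6.21% in knockout libraries, beside the measured 6.48% and 4.59%. Of the 7 members tested, Nfatc1 was the only one whose groups lay apart in log2 CPM. Over all genes the groups lay apart with the knockout lower in 3.83%.

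Smoc1, which encodes a secreted matrix protein of the SPARC family that opposes BMP signalling in Xenopus, had the largest fold difference of the members and low counts. Smoc1 (ENSMUSG00000021136) spans 81026808 to 81186414 on chromosome 12, plus strand. Its normalized counts were 56.4, 33.4, 27.9 and 45.5 in wild-type replicates 1 to 4, and the knockout replicates in that order were at 27.4, 13.1, 29.2 and 22.9. The highest knockout library, replicate 3, exceeded the lowest wild-type library, also replicate 3, so the groups overlapped in 1 library of each. The means were 40.8 ± 12.7 and 23.1 ± 7.22 (SD, n = 4 each), with the knockout at 56.7% of wild-type and a log2 fold change of −0.91 (SE 0.28). Raw counts were 21 to 74 in wild-type and 17 to 28 in knockout libraries. Counting error alone gives a spread of 16.9% and 21.9%, beside the measured 31.2% in each group. Knockout replicate 2, the deepest library, held 19 reads and the lowest normalized value. Without it the log2 fold change was −0.66, and without knockout replicate 3 it was −1.08. With the mitochondrial rRNA share as a covariate it was −0.50, and with the mean of the pan-endothelial markers described below as a covariate −1.36.

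Cgnl1, which encodes paracingulin, an adaptor of tight and adherens junctions, was abundant and differed little. Cgnl1 (ENSMUSG00000032232) lies at 71626509 to 71771602 on chromosome 9, minus strand. It was at 1170, 1185, 1094 and 1204 normalized counts in wild-type replicates 1 to 4, and the knockout replicates in that order were at 1008, 931.0, 1125 and 1078. Only knockout replicate 3 lay within the wild-type range, and the other 3 knockout libraries lay below it. The means were 1163 ± 48.4 and 1035 ± 84.7 (SD, n = 4 each), 89.0% of wild-type, with a log2 fold change of −0.17 (SE 0.06) that was −0.30 with the pan-endothelial markers as a covariate.

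The surface protein genes Plvap and Emcn spread more widely among the knockout than among the wild-type libraries. Plvap encodes the protein of the diaphragms that close caveolae and fenestrae, and lies at 71497765 to 71511752 on chromosome 8, minus strand. It was at 125.1, 132.4, 114.4 and 126.7 normalized counts in wild-type replicates 1 to 4, and the knockout replicates in that order were at 77.3, 55.0, 123.2 and 118.5. Knockout replicates 1 and 2 thus lay well below the wild-type range and replicates 3 and 4 within it. The spread relative to the mean was 6.03% in wild-type and 35.2% in knockout libraries, where counting alone gives 9.18% and 11.2%. The means were 124.7 ± 7.52 in wild-type and 93.5 ± 32.9 in knockout (SD, n = 4 each), and the log2 fold change of −0.44 (SE 0.21) was −0.21 without knockout replicate 2 and −0.61 without replicate 3. It was −0.12 with mesothelial markers as a covariate and −1.04 with the pan-endothelial markers as a covariate. The latter fit leans on knockout replicate 2, as set out below.

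Emcn, which encodes the sialomucin endomucin and is preceded by the AT-rich stretch shown above, lies at 137341067 to 137432185 on chromosome 3, plus strand. It was at 685.7, 662.2, 634.7 and 638.9 normalized counts in wild-type replicates 1 to 4, and the knockout replicates in that order were at 563.4, 492.7, 555.2 and 723.4. Replicates 1, 2 and 3 of the knockout lay below all wild-type libraries and replicate 4 above them all. Its spread was 3.60% in wild-type and 16.9% in knockout libraries. The log2 fold change of −0.17 (SE 0.09) was −0.30 without knockout replicate 4 and −0.09 without knockout replicate 2. It was −0.32 with the pan-endothelial and 0.01 with the mesothelial markers as a covariate.

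**Figure D2:**
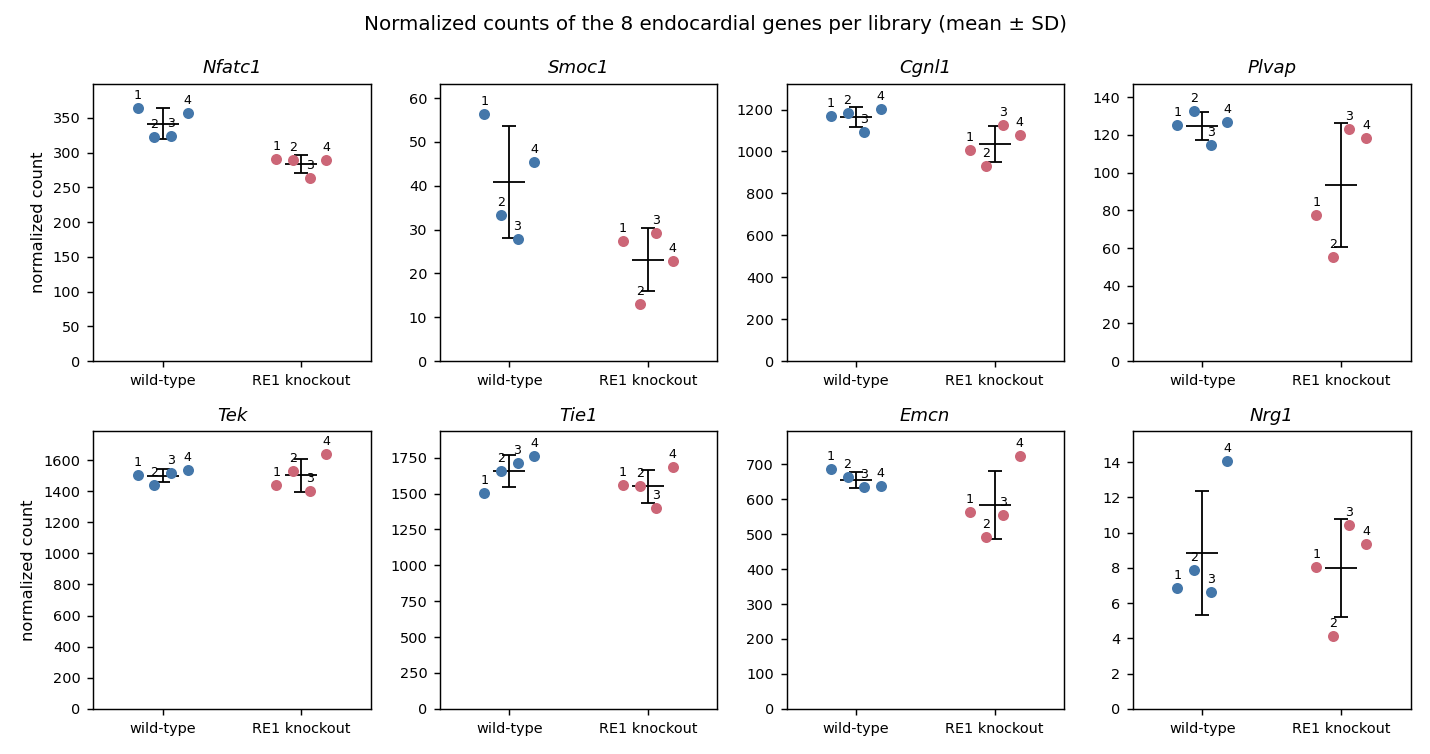
Normalized counts of the 8 genes (y axes from 0) in each wild-type and RE1 knockout library, numbered by replicate, with the mean and SD of 4 libraries. Nfatc1 is the gene whose groups do not overlap, Plvap splits the knockout libraries into 55.0 and 77.3 against 118.5 and 123.2, and Tek is level.

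The angiopoietin receptor gene Tek and its paralogue Tie1 were close to level. Tek encodes Tie2, the receptor that binds angiopoietins, and Tie1 encodes a partner receptor that modulates it. Both are on chromosome 4, as are Nppa and Nppb, but Tek (94739289 to 94874976) lies 53.1 Mb and Tie1 (118471191 to 118490061) 29.5 Mb from that locus. Tek was at 1504, 1442, 1516 and 1538 normalized counts in wild-type replicates 1 to 4, and the knockout replicates in that order were at 1441, 1530, 1399 and 1640, so that knockout libraries lay both below and above the wild-type range. Its log2 fold change was 0.003 (SE 0.05), with −0.08 under the mitochondrial rRNA covariate and 0.08 under the pan-endothelial one. Tie1 was at 1504, 1657, 1714 and 1763 in wild-type replicates 1 to 4, and the knockout replicates in that order were at 1563, 1554, 1402 and 1685. Of its knockout libraries 3 lay within the wild-type range and replicate 3 below it, with a log2 fold change of −0.10 (SE 0.06). Without knockout replicate 3 that value was −0.05, with the mitochondrial rRNA covariate −0.17 and with the pan-endothelial covariate −0.06. The ratio of Tie1 to Tek, per length, was 1.06 ± 0.0685 in wild-type and 0.990 ± 0.0348 in knockout libraries (SD, n = 4 each), with ranges of 0.958 to 1.10 and 0.960 to 1.04 that overlapped.

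Nrg1, the neuregulin gene, was near the limit of detection. It spans 31814551 to 32884029 on chromosome 8, over 18 annotated transcripts, and lies on the minus strand. Raw counts were 9, 8, 5 and 13 in wild-type replicates 1 to 4, and the knockout replicates in that order were at 5, 6, 10 and 9, and the ranges overlapped. Nrg1 did not pass the filter on low counts and has no fitted value. The counts were made per gene, so its isoforms cannot be told apart. Part of its exons overlaps an antisense gene, and reads of the pair cannot be told apart without the strand setting. Small differences were not detectable at this depth, since counting alone gives a spread of 35.8% in wild-type and 38.0% in knockout libraries.

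None of the 7 members that passed the filter was called by edgeR at an adjusted p under 0.05 over 16551 genes, where 176 genes (1.06%) were called, 62 higher and 114 lower. DESeq2 and limma-voom also called 0 of them. At an unadjusted p under 0.05 edgeR counted 3 of the 7, against 13% of all genes. Because the members were chosen with this contrast known, nothing is read from these counts. The median log2 fold change of the 7 was −0.17, with 6 negative and 1 positive, and over all genes tested the median was 0.0001 with the middle range from −0.10 to 0.09. The authors' deposited table gives log2 fold changes, turned to knockout over wild-type, of −0.27 for Nfatc1, −0.89 for Smoc1, −0.17 for Cgnl1, −0.42 for Plvap, 0.005 for Tek, −0.10 for Tie1 and −0.17 for Emcn.

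Most pan-endothelial markers also had values below 0, and Cldn5, a tight junction gene at 0.80 (SE 0.33, edgeR adjusted p = 0.384), did not. Values were below 0 for 14 of 15 such markers, all tested, and their median log2 fold change was −0.12. At an unadjusted edgeR p under 0.05 stood 6 of the 15, against 13% of all genes. Robo4 (log2 fold change −0.31, SE 0.07, edgeR adjusted p = 0.0318) and Erg (−0.31, SE 0.07, edgeR adjusted p = 0.0416) fell, none rose and 13 did not pass. Each lost its call in 6 of 8 fits that left out 1 library: Robo4 kept it only without wild-type replicate 2 or 3, and Erg only when knockout replicate 4 or wild-type replicate 2 was left out. The edgeR adjusted p of the pair reached 0.143 and 0.168. The summed level of all 15 pan-endothelial markers was 838 to 910 CPM in wild-type and 779 to 850 CPM in knockout libraries. Their mean log2 CPM was 4.99 ± 0.028 in wild-type and 4.87 ± 0.0723 in knockout libraries (SD, n = 4 each), a difference of −0.11. Of the knockout libraries only replicate 2, at 4.98, lay within the wild-type range of 4.95 to 5.01. It was also the lowest knockout library for Plvap, Smoc1, Cgnl1 and Emcn. Fits with this mean as a covariate thus lean on 1 library, and their values are not corrected for cell content. Such fits moved these genes further below 0, whereas subtraction of the mean, given next, moved them toward 0. Against this mean in the same library, the log2 difference between the groups was −0.16 for Nfatc1, −0.66 for Smoc1, −0.37 for Plvap, −0.06 for Cgnl1, −0.07 for Emcn, 0.01 for Tie1 and 0.11 for Tek. On that relative scale Tek was at 0.83 to 0.87 in the wild-type libraries and at 0.88 to 1.10 in the knockouts, and Nfatc1 was at −1.36 to −1.20 and at −1.51 to −1.35, where the groups just touched. Capillary markers had a median log2 fold change near 0 (5 of 10 negative, with Aqp1 higher at 0.24), arterial and venous markers of −0.15 (7 of 8 negative, 0 called by edgeR, 3 at an unadjusted p under 0.05) and lymphatic markers of 0.16 (6 of 8 positive, 0 called, 2 at an unadjusted p under 0.05). The call of Aqp1 held only without wild-type replicate 2 or 3, and the largest edgeR adjusted p was 0.171. Capillary markers summed to 1430 to 1546 CPM in wild-type and 1450 to 1683 CPM in knockout libraries. Most of that sum came from Cd36, whose wild-type mean was 27021 normalized counts, with Fabp4 next at 4404. The log2 fold change of Cd36 was 0.06 (SE 0.05). The capillary sum thus follows mainly 1 gene and is not read as a measure of capillary content.

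**Figure D3:**
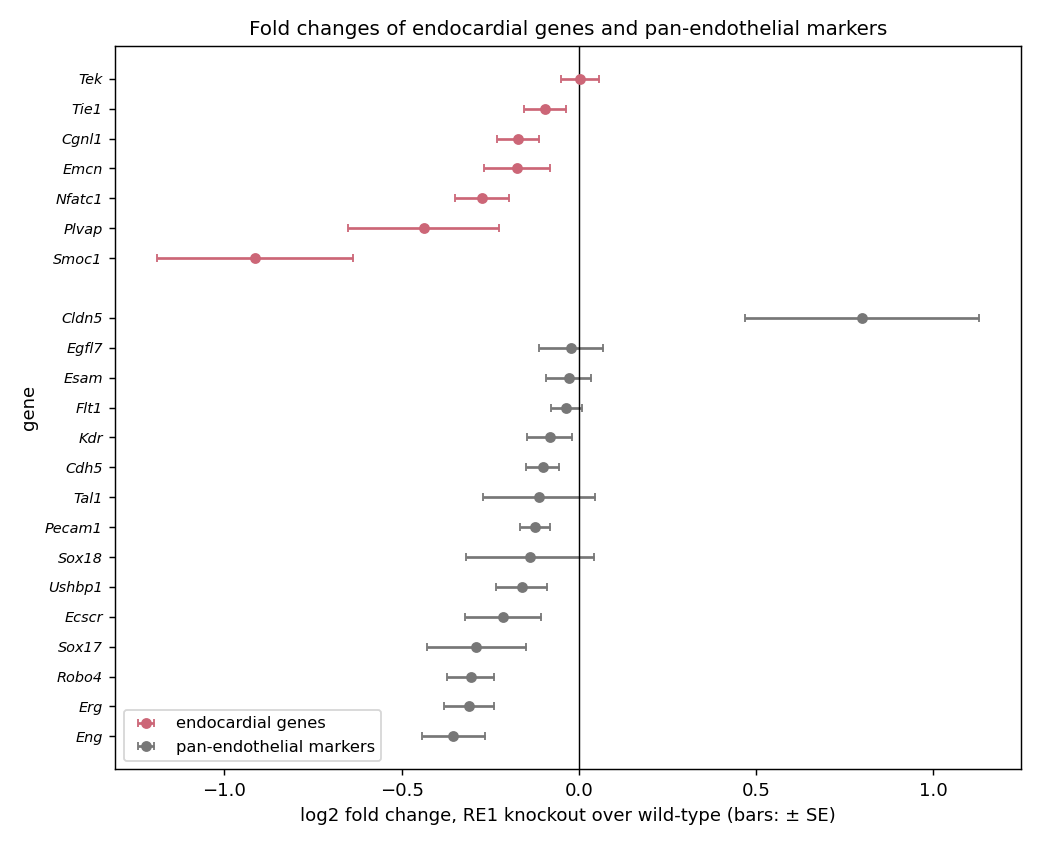
Log2 fold change, RE1 knockout over wild-type, of the 7 tested endocardial genes and 15 pan-endothelial markers, with bars for the SE of the edgeR fit. Smoc1 (−0.91) and Plvap (−0.44) lie farther below 0 than any pan-endothelial marker, with the widest bars of the members, and Cldn5, at 0.80, is the one pan-endothelial marker above 0.

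Markers of other cells differed between the groups to different degrees. All 8 tested mesothelial markers, of the heart's outer lining, had positive log2 fold changes with a median of 1.75 (0 called by edgeR, 3 at an unadjusted p under 0.05), and their sum was 5.44 to 17.5 CPM in wild-type and 11.9 to 36.0 CPM in knockout libraries. Fibroblast markers summed to 1659 to 1930 CPM in wild-type and 1961 to 2050 CPM in knockout libraries. Their median log2 fold change was 0.17, with 9 of 10 positive and 4 at an unadjusted edgeR p under 0.05. Of the 10, Pdgfra (0.41) and Gsn (0.26) were higher, and Pdgfra lost its call without knockout replicate 2 (edgeR adjusted p = 0.0597). Aqp1, Pdgfra and Gsn were named after their values were seen. Markers of valve mesenchyme, a tissue next to the endocardium, had a median of 0.14 over 7 tested with 0 called by edgeR and 3 at an unadjusted p under 0.05, and sums of 34.5 to 43.9 and 33.3 to 43.5 CPM. Of 10 macrophage, 10 pericyte and smooth muscle, 5 Schwann cell and 6 erythroid markers tested, 0 were called by edgeR, and 0, 2, 1 and 0 had an unadjusted p under 0.05. Beside all these counts at an unadjusted edgeR p, the share over all genes was 13%. With the mesothelial markers as a covariate Emcn and Plvap were at 0.01 and −0.12, as given above, while Nfatc1 was at −0.33 and Smoc1 at −0.93. The part of the other cell types in the members' values was not tested.

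Across libraries the members varied in different ways. After removal of the group means, Pearson's r over the 8 libraries had a median of 0.29 over the 21 pairs of the 7 tested members, and 13 pairs were positive. Cgnl1 and Plvap were most alike (r = 0.93), followed by Smoc1 with Cgnl1 (0.73), Plvap with Emcn (0.70) and Tek with Tie1 (0.68). Smoc1 and Tie1 were least alike (−0.44), and Nfatc1 was at −0.33 with Plvap and 0.49 with Tek. Knockout replicate 2 lay below its group mean by 0.67 log2 units in Plvap and 0.68 in Smoc1, and by 0.23 in Emcn and 0.15 in Cgnl1, while it was within 0.04 for Nfatc1, Tek and Tie1. These values are descriptive, since the points share libraries and their depth. Among 11853 other genes searched, those whose deviations most resembled Nfatc1 were Xndc1, Psat1, Zbtb4, Brf1 and Retreg2 (r from 0.98 to 0.95). Those most like Smoc1 were Ppargc1a, Mtmr10, Lypd6, Gid8 and Elf2 (r from 0.99 to 0.94). The top genes of so large a search over 8 libraries reach a high r by chance as well, and no test was made. Smoc1 also rests on 17 to 74 reads per library.

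**Figure D4:**
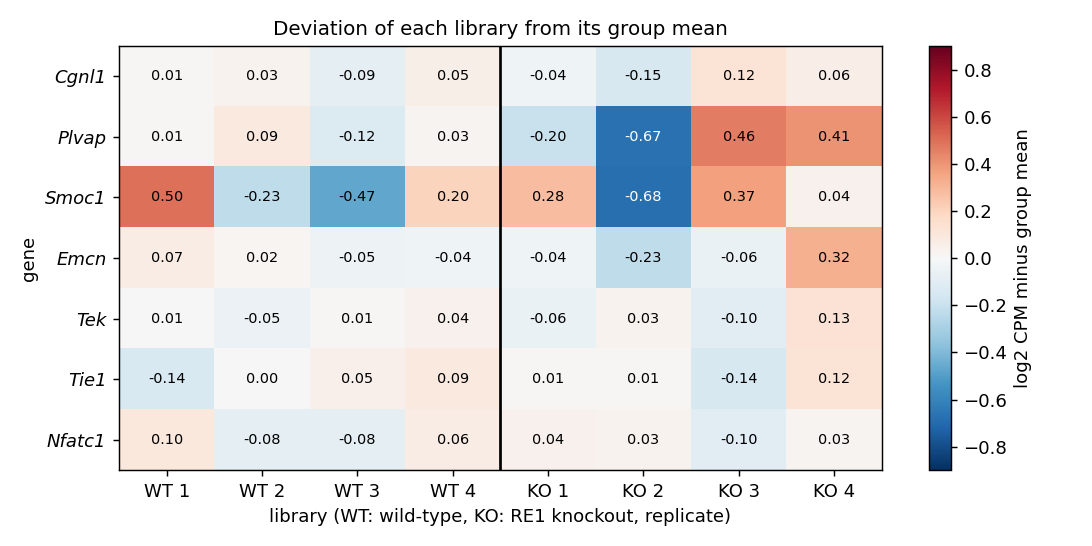
Deviation of each library from its group mean in log2 CPM for the 7 tested genes, with wild-type replicates 1 to 4 to the left of the line and knockout replicates to the right. Plvap and Smoc1 are lowest in knockout replicate 2 (−0.67 and −0.68), whereas Nfatc1, Tek and Tie1 are near 0 there.

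Genes of the members' pathways were described from 7 lists that held 140 genes apart from the members, of which 124 were tested. Of these 3 fell (Jcad, Podxl and Icam2), 0 rose and 121 did not pass, against 1.06% called over all genes. With an unadjusted edgeR p under 0.05 there were 27 of the 124, against 13% of all genes. That share also belongs beside the counts at an unadjusted p given for each list below. None of the 3 calls held with pan-endothelial markers, mesothelial markers or the mitochondrial rRNA share as a covariate. These covariates differ in part between the groups, and with them the calls over all genes went from 176 to 15, 11 and 83. The loss of a call there cannot decide what lay behind it. There were 64 negative and 60 positive values, with a median log2 fold change of −0.02. The groups lay apart in log2 CPM with the knockout lower in 12 of the 124 genes and higher in 4. Over all genes the share apart with the knockout lower was 3.83%, and the share with it higher was not counted. Dyrk1b and Bmp4 were among the 12 and Hand2 among the 4, beside the genes described below as apart.

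Among 22 calcineurin and NFAT genes, all tested, 0 passed the edgeR test, 3 had an unadjusted p under 0.05 and the median was 0.03. The NFAT paralogues Nfatc2, Nfatc3 and Nfatc4 were at −0.16 (SE 0.08), −0.06 (SE 0.06) and 0.03 (SE 0.12). Nfatc2 was at 256.0 ± 10.7 normalized counts in the wild-type group and 228.7 ± 10.1 in the knockout group (SD, n = 4 each) and, like Nfatc1, its groups lay apart in log2 CPM. The kinase gene Dyrk1b was at −0.28 (SE 0.09, edgeR adjusted p = 0.134). Rcan1, an inhibitor of calcineurin that NFAT itself induces, had 1399 ± 332 normalized counts in the wild-type group and 2168 ± 235 in the other (SD, n = 4 each), and every knockout library lay above every wild-type library, but it did not pass (log2 fold change 0.64, SE 0.18, edgeR adjusted p = 0.223). Rcan1 did pass with DESeq2, limma-voom, limma on normalized counts, the plain in place of the robust edgeR fit, and the robust fit without wild-type replicate 4.

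Among 15 tested angiopoietin and Tie genes, 0 passed the edgeR test, 3 had an unadjusted p under 0.05 and the median was −0.05. The ligand gene Angpt1 was at 568.8 ± 121 normalized counts in the wild-type group and 562.8 ± 47.0 in the knockout group. Angpt2, the ligand that endothelium itself makes and that opposes Angpt1, had means of 133.9 and 97.1 and SDs of 19.2 and 9.0 (n = 4 each), with groups that lay apart (log2 fold change −0.45, SE 0.13, edgeR adjusted p = 0.108). It passed when no filter on low counts was used. Ptprb, the phosphatase that acts on Tie2, was at −0.05 (SE 0.04). Foxo3, a transcription factor that Akt holds back downstream of the receptor, was at −0.14 (SE 0.05, edgeR adjusted p = 0.232).

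Among 16 tested neuregulin and ErbB genes, 0 passed the edgeR test, 3 had an unadjusted p under 0.05 and the median was 0.03. The receptor genes Erbb2, Erbb3 and Erbb4 were at −0.13 (SE 0.10), 0.11 (SE 0.08) and 0.05 (SE 0.07). Per length the wild-type level was 1.57 for Erbb2, 2.53 for Erbb3 and 2.26 for Erbb4, against 0.0325 for the ligand gene Nrg1. Nrg4, another ligand of ErbB4, was at 46.0 ± 6.54 normalized counts in the wild-type group and 28.7 ± 1.81 in the knockout group (SD, n = 4 each), and its groups lay apart (log2 fold change −0.67, SE 0.19, edgeR adjusted p = 0.116). Errfi1, a feedback inhibitor of these receptors, was at 460.2 ± 180 and 912.0 ± 148 (SD, n = 4 each), and every knockout library lay above every wild-type library (log2 fold change 1.01, SE 0.29, edgeR adjusted p = 0.237). Errfi1 passed with limma-voom, limma on normalized counts and the plain edgeR fit.

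Among 27 tested SPARC family and BMP genes, 0 passed the edgeR test, 7 had an unadjusted p under 0.05 and the median was −0.04. Smoc2, the paralogue of Smoc1, was at 1461 ± 131 normalized counts in the wild-type group and 1494 ± 74.8 in the knockout group (SD, n = 4 each), with a log2 fold change of 0.03 (SE 0.06). Per length Smoc2 was at 7.98 in wild-type and Smoc1 at 0.443. The ligand gene Bmp4 was at −0.52 (SE 0.14, edgeR adjusted p = 0.0799) and Eng, an endothelial co-receptor for BMP9 and BMP10, at −0.35 (SE 0.09, edgeR adjusted p = 0.102). Both passed when no filter on low counts was used, Bmp4 also without wild-type replicate 4, and Eng also with DESeq2 and without wild-type replicate 3. The BMP target genes Id1, Id2 and Id3 were at −0.06, 0.01 and 0.02 (SE 0.07, 0.10 and 0.06). Bmp10 was at 0 normalized counts in the wild-type group and 0.949 ± 1.30 in the knockout group and was not tested.

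Of 19 tested cingulin partners and junction genes, 1 fell, 0 rose and 18 did not pass. Jcad, which encodes a junction protein of endothelial cells, fell: its mean was 2352 ± 82.5 normalized counts in wild-type libraries and 1951 ± 114 in knockouts (SD, n = 4 each). Its log2 fold change was −0.27 with an SE of 0.05 and an edgeR adjusted p of 0.0113. Its call ended without wild-type replicate 1 (edgeR adjusted p = 0.0501). Cgn, the paralogue of Cgnl1, was at 5.14 ± 3.56 and 10.4 ± 6.24 normalized counts and was not tested, and Tjp1, the junction scaffold ZO-1 to which both bind, was at −0.03 (SE 0.05).

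Of 12 tested endothelial surface and diaphragm genes, 2 fell, 0 rose and 10 did not pass. Icam2, an adhesion molecule, fell: its mean was 350.8 ± 13.5 normalized counts in wild-type libraries and 254.3 ± 7.67 in knockouts (SD, n = 4 each). Its log2 fold change was −0.47 with an SE of 0.07 and an edgeR adjusted p of 0.00387. Podxl, which encodes a sialomucin like endomucin, fell as well, with means of 2532 ± 238 and 2056 ± 112 (SD, n = 4 each) and a log2 fold change of −0.30 with an SE of 0.06 and an edgeR adjusted p of 0.0265. Podxl lost its call in 5 of 8 fits that each left out 1 library (wild-type replicates 1 and 2, knockout replicates 1, 2 and 3), with an edgeR adjusted p of up to 0.112. The related sialomucin gene Cd34 was at −0.03 (SE 0.05).

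Among 15 genes listed as other endocardial markers, all tested, 0 passed the edgeR test and 3 had an unadjusted p under 0.05. The median was 0.03, with 7 negative and 8 positive. In whole tissue these genes, of which Tal1 is also among the pan-endothelial markers, do not report on the endocardium alone. Npr3, the natriuretic peptide clearance receptor gene that marks the endocardium, was at 654.3 ± 106 normalized counts in the wild-type group and 676.1 ± 82.4 in the knockout group (SD, n = 4 each), and its log2 fold change was 0.04 with an SE of 0.12. Vwf was at −0.12 (SE 0.07). Mmrn2, an endothelial matrix glycoprotein gene, was at −0.25 (SE 0.07, edgeR adjusted p = 0.0789), and Hand2, a transcription factor gene, at 0.70 (SE 0.18, edgeR adjusted p = 0.165). Hand2 passed with DESeq2, limma-voom, limma on normalized counts and the plain edgeR fit, and Mmrn2 with no filter on low counts and without wild-type replicate 4.

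**Figure D5:**
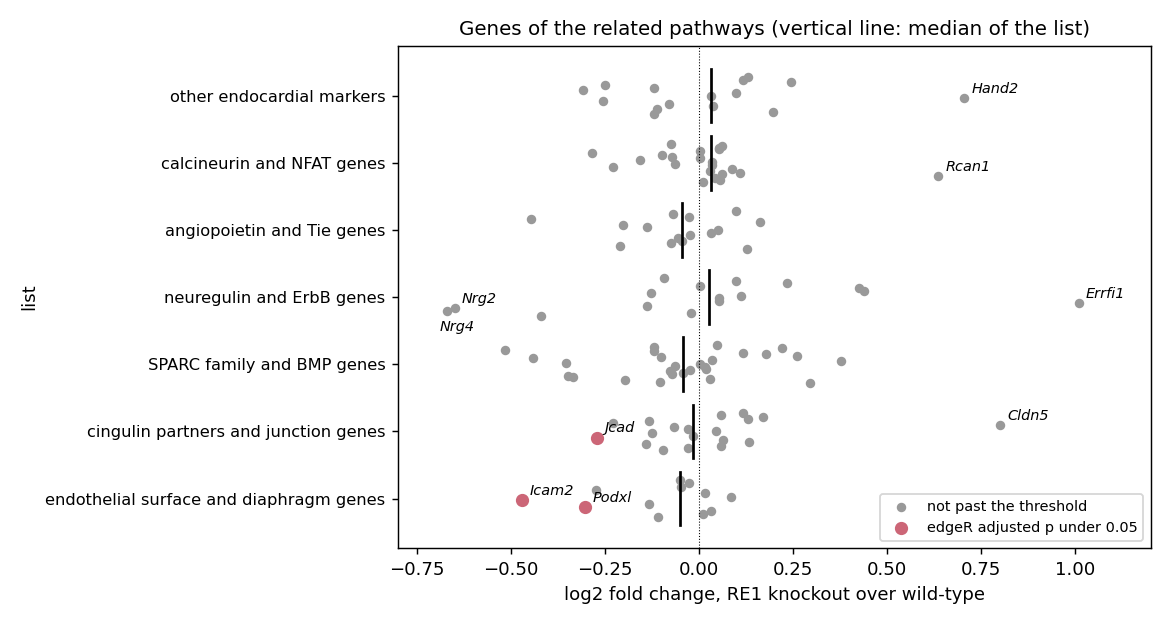
Log2 fold change, RE1 knockout over wild-type, of the tested genes in 7 lists of related genes, each point a gene, with a vertical line at the median of the list. Jcad, Podxl and Icam2 are past the edgeR threshold, all lower, and the medians lie between −0.05 and 0.03.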

How the data were processed

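Libraries were made from left ventricular total RNA with a stranded kit, per the labels' protocols. The submitters' processing notes name STAR, DESeq2 and mm10, with no versions. Not given in the sources used here are the counting program and its strand setting. Deposited by the authors were raw counts per gene, with 1 column per mouse, a normalized signal that equals the counts divided by a single size factor per library, and a table of log2 fold changes with p-values, wild-type over knockout, whose sign was turned.

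Counts were tested with edgeR 4.0.16 (R 4.3.3; TMM, filterByExpr, robust quasi-likelihood F test, group as the only term), with Benjamini-Hochberg adjustment over 16551 genes and a threshold of 0.05. Standard errors come from the fold change and F. The test was checked on simulated counts. Means ± SD are of normalized counts unless another scale is named, and log2 CPM uses a prior count of 2. P-values weigh the group difference against the spread between mice, estimated with information shared over genes. They take the 4 knockout libraries as independent, although these fell into pairs. The spreads given for counting alone cover counting error only. Symbols, coordinates and exon lengths are from GENCODE M21 (GRCm38, the assembly of mm10). Members share 0% of their 100-base stretches with other genes, except Nrg1 (3.54%), which also shares 482 exon bases with the antisense gene Gm26578.

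Members and lists were chosen with earlier results of these data known. Named are all members, direct partners, and from each list the genes past the threshold or else those with the smallest p. Genes most alike were searched at a mean CPM of at least 1. Same-numbered libraries did not deviate together (r from −0.08 to 0.02), so numbers were not treated as pairs. Alternatives used DESeq2 1.42.0 and limma 3.58.1, other factors, filters and covariates, and left out each library; the plain in place of the robust fit was added after seeing the data.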

Additional observations from a re-analysis of the deposited data

Results flagged for a closer look

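Of 16 groups of 4 libraries (8 genes, wild-type and knockout), 2 held a library whose gap to the nearest other library exceeded the critical value of 0.829 of the group's range. Nfatc1 was at 264.0 normalized counts in knockout replicate 3, below the 289.0 to 291.4 of the other knockout libraries. Nrg1 was at 14.1 normalized counts in wild-type replicate 4, on 13 reads, above the 6.65 to 7.85 of the other wild-type libraries. Chance marks about 1 in 20 such groups.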

How the results depend on the processing

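The number of members past the threshold was 0. It became 1 with no low-count filter (Smoc1), without knockout replicate 4 (Emcn) and at an edgeR adjusted p under 0.1 (Nfatc1). Leaving out a library gave 0 to 1. The members were chosen with this contrast known, so nothing is read from these calls. Fold changes of Nfatc1, Smoc1, Cgnl1, Plvap and Tie1 were negative in all 22 settings. That of Emcn was negative in 21 (0.01 with mesothelial markers as a covariate) and that of Tek in 5. The threshold of 0.1 and the plain fit leave the members' fold changes as in the main fit and only repeat their sign. The median of −0.17 was −0.30 with pan-endothelial markers as a covariate and ran from −0.28 to −0.12 over the fits without a library. The 3 pathway genes past the threshold became 10 with no filter, 6 with DESeq2, limma-voom or the plain fit, 5 with limma on normalized counts or at 0.1, 0 with pan-endothelial, mesothelial or mitochondrial rRNA covariates, and 1 to 8 without a library. Genes higher and lower over all genes were 269 and 374 with no filter, 107 and 180 with DESeq2, 37 and 65 with limma on normalized counts, 128 and 218 at 0.1, 4 and 11 with the pan-endothelial, 1 and 10 with the mesothelial and 33 and 50 with the rRNA covariate, and ran from 8 to 108 and from 28 to 151 without a library (lowest without knockout replicate 2, highest without wild-type replicate 4). With the replicate block the members past the threshold were 0, the pathway genes 2 (Podxl lost its call) and the genes higher and lower 70 and 116. The causes were not tested. Leaving out a library leaves fewer samples, and the calls over all genes fell in some of these fits and rose in others. Without wild-type replicate 4 they rose from 176 to 259. Depth limits Nrg1 and Smoc1.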
